A study of Mus musculus with 2 samples.

Results

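Lactotrophs, the prolactin-secreting cells of the anterior pituitary gland, were described in 1 single-cell RNA library of mouse optic nerve, FMC_new. A barcode was kept with 500 to 5000 detected genes, 500 to 20000 UMIs (unique molecular identifiers, 1 for each RNA molecule counted) and at most 5% mitochondrial UMIs. A kept barcode was a member when *Prl*, the prolactin gene, gave at least 10% of its UMIs, when *Prl* exceeded *Gh*, the growth hormone gene, and when it held no UMI of *Ptprc*, the pan-leukocyte gene. The rule found 190 members among 16818 kept barcodes of FMC_new, 1.13% (exact Clopper-Pearson 95% interval 0.976 to 1.30). In the other library, C-ON, it found 0 of 8834, which allows a share of up to 0.0340%. The members were thus chosen by their *Prl*, *Gh* and *Ptprc* values, which are given only as a description.

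Both libraries came from optic nerves of *Nf1*OPG mice (*Nf1*flox/mut; GFAP-Cre, on a C57BL/6 background), which develop optic glioma. These mice carry 1 mutant *Nf1* allele throughout the body and lose the other where GFAP-Cre is active, so FMC_new and C-ON share this genotype. The protocol gives pools of nerves from 10 mice aged 12 weeks (dura was collected apart), the sex of the mice is not given in the labels, and the title of C-ON adds the word control without naming what was controlled. The labels do not explain the name FMC either, so how the libraries differ in origin is not given. Each library is 1 pool, so cells are not replicates, no p-value was computed, and every interval below covers counting error only.

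Lactotrophs arise with somatotrophs and thyrotrophs from precursors that require the transcription factor POU1F1. They make prolactin at a very high rate, pack it in dense-core granules, and are held in check by dopamine from the hypothalamus acting on the D2 receptor, while estrogen raises prolactin synthesis. The optic nerve itself contains no pituitary hormone cells, but the optic chiasm lies directly above the pituitary gland.

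The promoters of *Prl* (the gene that defines the cells), *Pou1f1* (the lineage factor used to check the label) and *Crhbp* (chosen after its values and its matches were seen) are shown because POU1F1-type sites are the known link between this factor and prolactin. Each runs from 250 bases before to 50 bases after an annotated start, 5′ to 3′ on the coding strand, from RefSeq on GRCm38.p6, at chr13:27057320-27057619 (plus strand), chr16:65520262-65520561 (plus strand) and chr13:95444782-95445081 (minus strand). Capitals mark TATNCAT or its reverse complement ATGNATA, searched on both strands.
Prl: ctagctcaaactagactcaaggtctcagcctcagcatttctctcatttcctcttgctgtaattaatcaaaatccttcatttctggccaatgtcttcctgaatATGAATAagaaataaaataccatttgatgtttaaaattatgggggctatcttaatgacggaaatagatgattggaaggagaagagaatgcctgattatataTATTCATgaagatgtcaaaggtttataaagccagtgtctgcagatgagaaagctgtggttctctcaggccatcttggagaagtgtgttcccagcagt
Pou1f1: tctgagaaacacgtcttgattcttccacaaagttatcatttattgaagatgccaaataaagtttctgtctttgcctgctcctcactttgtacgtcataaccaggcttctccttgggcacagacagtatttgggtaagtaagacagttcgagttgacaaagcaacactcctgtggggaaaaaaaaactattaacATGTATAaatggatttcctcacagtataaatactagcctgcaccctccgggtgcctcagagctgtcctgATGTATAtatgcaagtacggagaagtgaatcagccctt
Crhbp: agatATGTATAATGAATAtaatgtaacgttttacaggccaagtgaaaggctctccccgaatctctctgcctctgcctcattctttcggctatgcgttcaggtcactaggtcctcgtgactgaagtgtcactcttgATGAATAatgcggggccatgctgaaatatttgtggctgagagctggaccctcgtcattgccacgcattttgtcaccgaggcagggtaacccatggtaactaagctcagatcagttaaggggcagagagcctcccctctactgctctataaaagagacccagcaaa
The *Prl* window held 2 matches, which began 148 and 47 bases before the start. The *Pou1f1* window held 2, at 57 bases before and 13 bases into the transcript, and the *Crhbp* window held 3. *Pou1f1* has another annotated start, at chr16:65523059-65523358, whose window held 0. Of 32851 promoters of the same length, 8.84% held at least 1 match. The windows of *Chgb*, *Gal*, *Drd2* and *Six6* had 0 matches. A match is only a string of letters and was not tied to binding here.

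FMC_new held 21341 barcodes and C-ON 10845, with medians of 4676 and 6810.5 UMIs per kept barcode, and 296 barcode sequences occurred in both, 3 of them members. FMC_new contained 2084220 *Prl* and 3216515 *Gh* UMIs, against 0 and 1 in C-ON. Hormone RNA reached nearly all barcodes of FMC_new: *Prl* was found in 94.4% of T cells (*Cd3e* and *Ptprc* detected, n = 3701), with a median of 3 UMIs, against a median of 1566 in lactotrophs. The comparison classes were 308 somatotrophs (*Gh* at least 10% of UMIs and at least *Prl*, no *Ptprc*) and 925 cells with *Pomc*, the corticotroph and melanotroph hormone precursor, at 1% of UMIs or more. *Pomc* cells, T cells and oligodendrocytes (*Mog* and *Mag* detected, n = 2448) had *Prl* and *Gh* under 10% each.

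The *Prl* share of the 190 members ran from 10.0% to 76.2%, with a median of 31.6%. Their *Gh* share was 0.319% in the median and 5.66% at most, close to the 0.350% of T cells. No member had *Gh* at 10% or more, and 19 had it at 1% or more. Just inside the limit, 11 members lay at 10 to 12% *Prl* and 4 of these had a *Pou1f1* UMI. Just outside, 17 barcodes lay at 5 to 10%, and 6 had one. Among kept barcodes that had no *Ptprc* UMI and more *Prl* than *Gh*, which is also the population of the 17, 24 lay at 2 to 5%, 35 at 1 to 2% and 430 under 1% *Prl*.

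The UMI ceiling removed part of the population. Of 347 barcodes of any size that met the hormone and *Ptprc* conditions, 157 were outside the filters, and 88 of these had over 20000 UMIs with a mitochondrial share within the limit. Of the 157, 58 had fewer than 500 genes and 18 exceeded the mitochondrial limit, and a barcode could fail more than 1 filter. The 88 deep barcodes had a median of 26366 UMIs and a median *Prl* share of 50.2%. A single one of them, with 56641 UMIs, held both hormones at 24.2% *Prl* and 19.4% *Gh*. The deep barcodes are given as a second set beside the members, whose median was 4347.5 UMIs (2975 without *Prl* and *Gh*). Where the deep barcodes were compared with somatotrophs, these were 68 barcodes that met the somatotroph rule above the same ceiling.

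**Figure D1:**
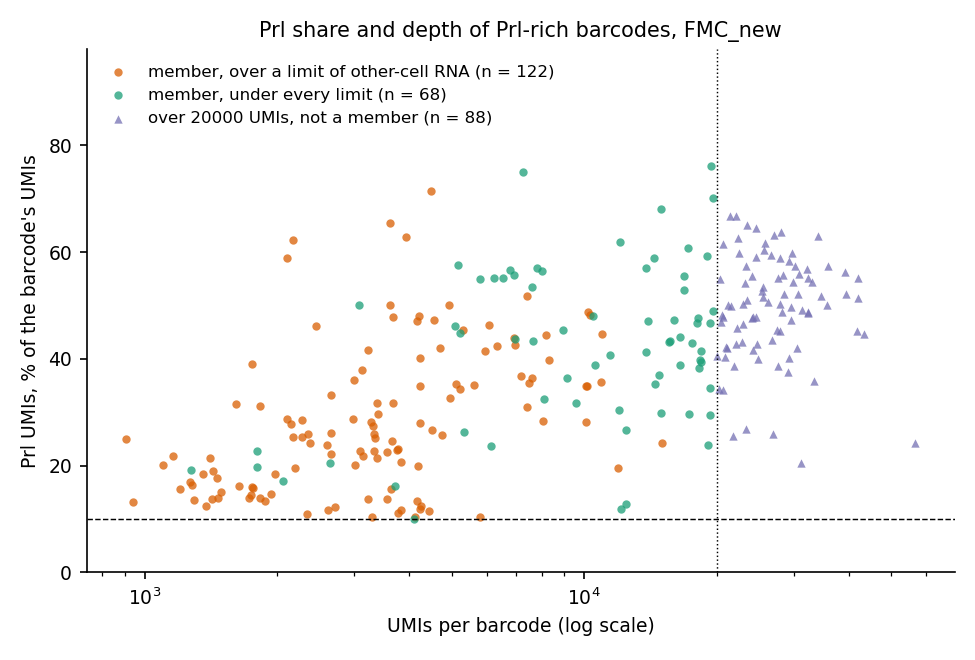
Prl share of each barcode (percent of its UMIs) against its UMIs on a log scale, for the 190 members and the 88 barcodes over 20000 UMIs. The dashed line is the 10% rule and the dotted line the UMI ceiling. Members over a limit of RNA from another cell kind lie mostly at the shallow, low-Prl end.

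Many members held RNA of other cell kinds beside prolactin. Limits were set after the data were seen, at 2% immunoglobulin and at 1% of each other kind, as a share of UMIs other than *Prl* and *Gh*. Immunoglobulin exceeded its limit in 62 members, MHC class II genes in 30, *Pomc* in 26, oligodendrocyte markers (*Mog*, *Mag*, *Mobp* and *Cldn11* among them) in 26 and macrophage markers in 2. In all, 122 members (64.2%) were over at least 1 limit, 98 of them over exactly 1, and 68 were under every limit. The same held for 39.3% of somatotrophs but only 11.4% of the 88 deep barcodes. Of T cells, 18.5% were over the immunoglobulin limit and 1.54% over that for *Pomc*; free RNA and mixed barcodes were not told apart. The members over a limit were shallow, with a median of 3375 UMIs against 12268 in the others.

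Single barcodes dominated some genes. A single member held 3533 of the 3598 UMIs of *Hbb-bs*, the beta-globin of red cells, in all members. Another held 793 of 830 UMIs of *Cga*, the shared subunit of glycoprotein hormones, and 299 of 309 of *Tshb*, the thyrotropin subunit. That second barcode had a *Prl* share of 10.4%, at the edge of the rule. Beside them *Lhb*, *Fshb* and *Gnrhr*, which define gonadotrophs, were at 0 in members, as was the receptor gene *Trhr*, listed here for thyrotrophs.

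**Figure D2:**
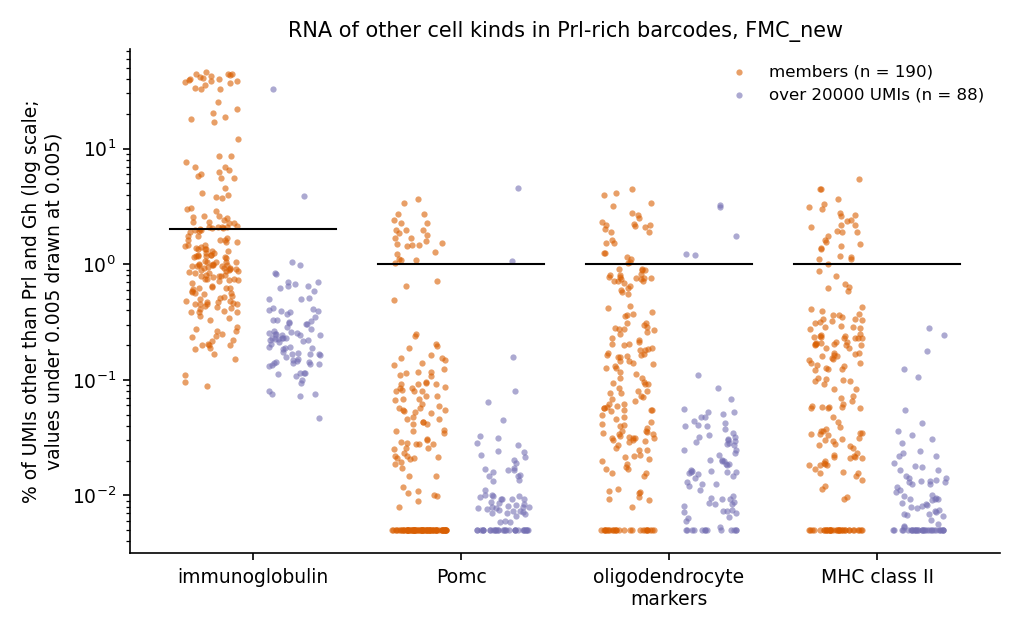
Share of UMIs other than Prl and Gh (percent, log scale) from 4 kinds of RNA foreign to lactotrophs, 1 point per barcode, for 190 members and 88 barcodes over 20000 UMIs. Horizontal lines are the limits; 62 members and 2 deep barcodes were over that for immunoglobulin.

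The immunoglobulin RNA fell into repeated patterns. In 31 members a single variable gene had at least 50 UMIs and led in at least 1 other member as well, which made 4 sets. In 11 members *Igkv8-21* led with 540 to 1010 UMIs, *Ighv8-12* followed at a ratio of 0.526 to 0.591, and *Prl* stayed between 10.3% and 13.7%. In 5 members *Igkv6-17* (459 to 1621 UMIs) came with *Ighv1-64* at a ratio of 0.326 to 0.431, and *Prl* was 34.9% to 36.8%. The 12 members of the *Igkv1-117* set had *Ighv1-19* at 0.0587 to 0.104 of it and *Prl* at 22.6% to 33.3%, and 3 members were led by *Igkv12-98*. Outside its set, no member had more than 16 UMIs of a leading gene.

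The barcodes of a set were alike in their other genes too. With *Prl*, *Gh* and immunoglobulin left out, pairs of barcodes within a set differed by a median chi-square per degree of freedom of 1.09 to 1.60 across the 4 sets, where 1 is counting error alone. Against members outside the set it was 3.61 to 5.53. Whether the barcodes of a set came from separate cells was not tested. With each set counted once, 163 members remained. Sets were sought only by a leading variable gene, and repeats among the 159 members outside them were not searched for. The 163 are thus not a count of separate cells, and the intervals of shares take every barcode as separate. *Chgb*, a granule gene of endocrine cells, had a UMI in all 31, so immunoglobulin and endocrine RNA stood side by side in the same barcodes.

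**Figure D3:**
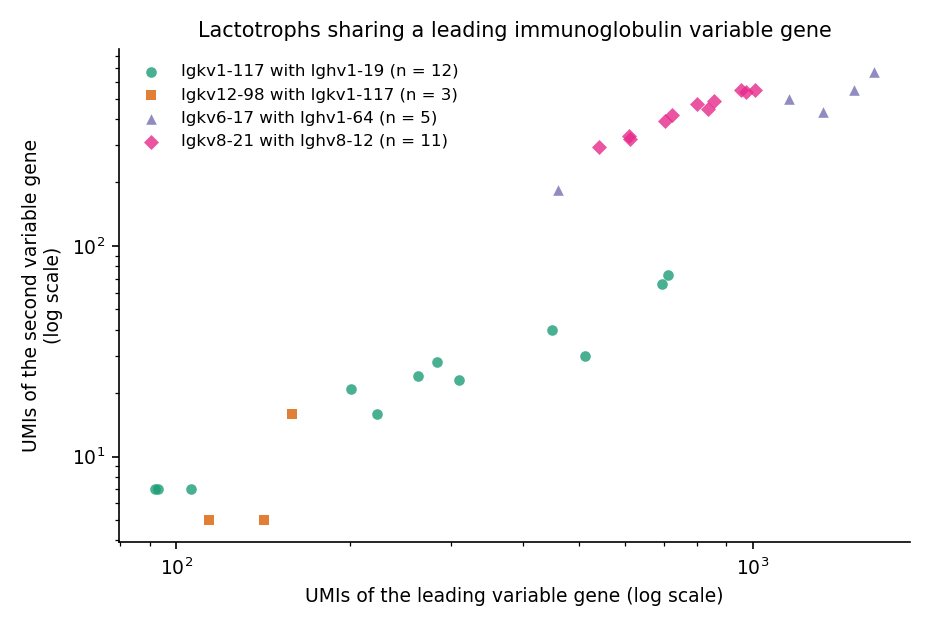
UMIs of the leading immunoglobulin variable gene (x, log scale) and of the second variable gene (y, log scale) in 31 lactotroph barcodes, coloured by set. Points of the Igkv8-21 set follow a line at a ratio between 0.526 and 0.591.

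The lineage factors did not go against the label. *Pou1f1* (chromosome 16, 65520511 to 65535005, plus strand, GRCm38), which directs the lactotroph, somatotroph and thyrotroph fates, had a UMI in 118 of 190 members, 62.1% (54.8 to 69.0). The share was 61.0% in somatotrophs, 1.84% in *Pomc* cells and 1.32% in T cells, so it was far above the free RNA of the library. In levels, *Pou1f1* reached 575 UMIs per 1000000 UMIs other than *Prl* and *Gh* (CPM; exact Poisson 95% interval 523 to 631) in lactotrophs against 412 in somatotrophs, 2.98 in *Pomc* cells and 3.07 in T cells. After each cell was thinned to 1000 such UMIs, which left out 6 members, it was found in 29.3% of lactotrophs, 24.1% of somatotrophs and 0.301% of T cells. Without thinning it was present in 91.2% of the 68 members under every limit, in 45.9% of the others and in all 88 deep barcodes.

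Other factors of the pituitary primordium were also detected. *Six6*, a homeobox factor of the hypothalamic and pituitary field, was found in 40.5% of lactotrophs against 14.3% of somatotrophs, at a level 5.59 times higher (exact interval 4.03 to 7.88). *Lhx3*, a LIM factor needed for most anterior lineages, was 4.28 times higher (2.31 to 8.28), in 13.7% against 4.55% of cells, and *Pomc* cells were above both at 86.9 CPM. *Pitx1*, a factor of all anterior pituitary cells, was at 72.0 against 49.3 CPM and stayed under the 2-fold rule. *Neurod4* was at 41.2 against 67.1 CPM and *Insm1*, a neuroendocrine zinc-finger factor, at 73.3 against 65.8. *Tbx19*, the corticotroph factor, gave only 12 UMIs in lactotrophs (15.4 CPM against 519 in *Pomc* cells), and none in the members under every limit.

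Across genes, lactotrophs were compared with somatotrophs, the class nearest in lineage, for 7686 genes with a UMI in at least 10% of the cells of either class. *Prl* and *Gh* were left out of the genes and of the totals. At a level ratio of at least 2, 331 genes were higher in lactotrophs (4.31% of those tested), and at a ratio of at most 0.5, 922 were lower (12%). The median log2 ratio was -0.18. With all UMIs as the total the median became 0.03 and the counts 483 higher and 676 lower, so the higher genes rose from 26.4% to 41.7% of those called. Of 6 measured lineage factors, 2 were higher and 0 lower, with a median log2 ratio of 0.51.

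**Figure D4:**
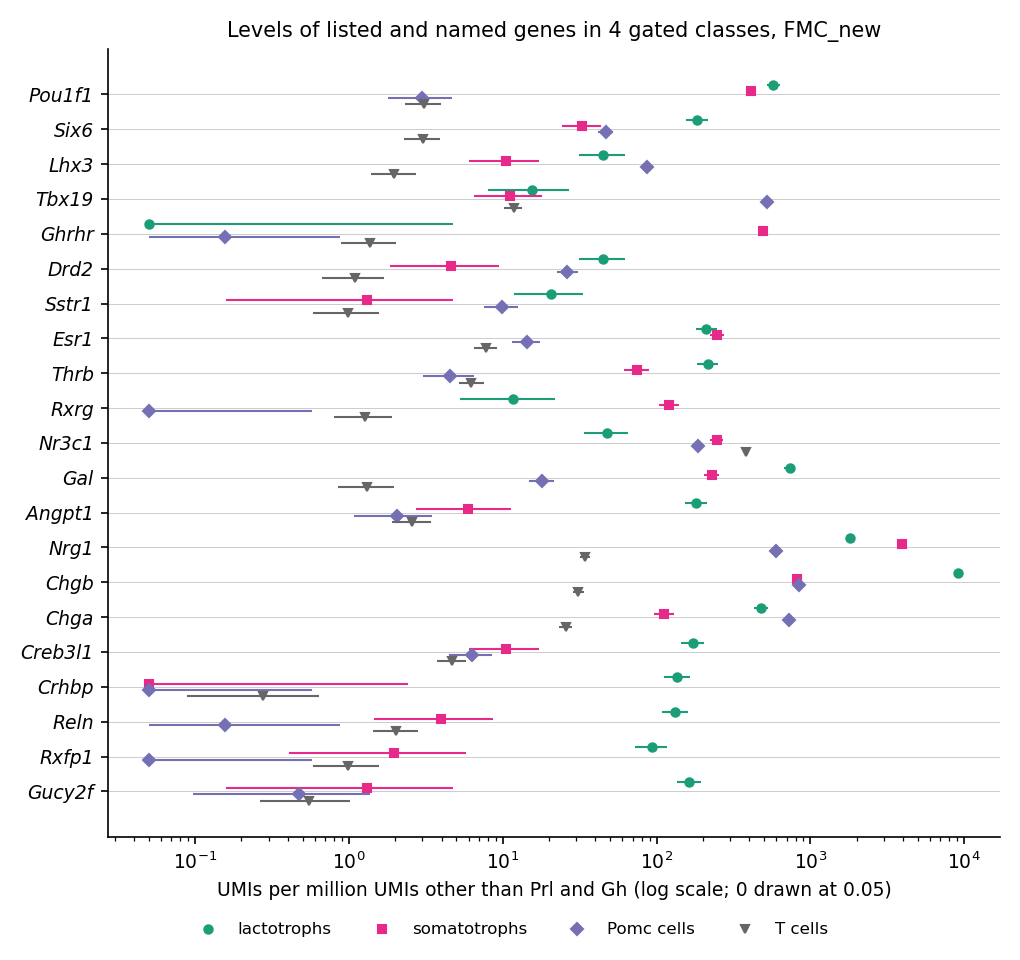
Levels of listed or named genes as UMIs per 1000000 UMIs other than Prl and Gh (log scale) with exact Poisson 95% intervals, in lactotrophs, somatotrophs, Pomc cells and T cells. Crhbp, Reln and Rxfp1 lie at 92.6 CPM or more in lactotrophs and under 4 CPM in the other 3 classes; Ghrhr had no UMI in lactotrophs.

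Of the receptors and nuclear receptors, 13 of 26 were measured, 3 higher and 5 lower (4.31% and 12% of all genes). Their median log2 ratio was -0.71 against -0.18 for all genes, but -0.13 against -0.26 in the deep barcodes. *Ghrhr* (chromosome 6, 55376295 to 55388530, plus strand), the receptor for growth hormone-releasing hormone that marks somatotrophs, had a UMI in 0 of 190 lactotrophs, which allows a share of up to 1.58%, and in 66.2% of somatotrophs. Its level was at least 127-fold lower, with the 0 set to 3 counts. In the deep barcodes it was found in 2.27%, that is in 2, of which 1 was the barcode with both hormones (8 UMIs).

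*Drd2* (chromosome 9, 49340627 to 49408177, plus strand), the dopamine receptor through which the hypothalamus restrains prolactin release, had 35 UMIs in 24 lactotrophs, 12.6% (8.26 to 18.2). It was in 2.27% of somatotrophs, 7.78% of *Pomc* cells and 0.270% of T cells, and its level was 9.78 times that of somatotrophs (4.28 to 26.1). Thinned to 1000 UMIs it was found in 10 of 184 lactotrophs, but in a separate draw in 3 of the 68 under every limit and 2 of the other 116, so no order was read from thinned shares of this gene. Without thinning the share was 26.5% under every limit and 40.9% in the deep barcodes, at unequal depth. Thinned to 1000 UMIs it was found in 1 of the 88 deep barcodes. *Sstr1*, a somatostatin receptor, did not meet the detection filter, at 20.6 CPM against 1.32 CPM in somatotrophs, a ratio of 15.6 (3.68 to 140).

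Nuclear receptors showed no common direction. *Esr1*, the estrogen receptor, was similar, at 211 CPM (180 to 246) against 246, with a ratio of 0.858 (0.709 to 1.03). *Thrb*, a thyroid hormone receptor, was 2.89 times higher in lactotrophs (2.26 to 3.70). *Nr3c1*, the glucocorticoid receptor, went the other way, at 47.6 CPM in lactotrophs against 245 in somatotrophs, 186 in *Pomc* cells and 382 in T cells. It was 5.15 times lower than in somatotrophs (3.67 to 7.44). It was found in 2.94% of members under every limit and 22.1% of those over one, and the source of this difference was not tested. Under every limit it was 39.3 times lower than in the matching somatotrophs, on 3 UMIs, and in the deep barcodes 14.5 times lower. *Rxrg*, a retinoid X receptor, was 10.5 times lower (5.39 to 23.2). *Erbb3* and *Tgfbr2*, receptors for neuregulins and TGF-beta, were lower on 5 and 9 UMIs, and *Tgfbr2* lost the call in the deep barcodes, at 1.55 times lower.

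Of 4 measured factors that lactotrophs can release locally 3 were higher and 1 lower, where 4.31% and 12% of all genes were. *Gal*, the estrogen-responsive neuropeptide galanin, was found in 46.3% of lactotrophs and 8.12% of somatotrophs, at 733 against 228 CPM, and in 31.0% against 5.52% at 1000 UMIs per cell. *Angpt1* (chromosome 15, 42424723 to 42676977, minus strand), an angiopoietin that acts on blood vessels, was 30.6 times higher (15.7 to 68.4), in 33.2% against 2.27% of cells. *Edil3*, an integrin ligand also found in 59.6% of oligodendrocytes at 1000 UMIs, was 6.18 times higher, and 31.3 times higher between the members and somatotrophs under every limit. *Nrg1*, the growth factor neuregulin 1, was at 1808 against 3961 CPM, 2.19 times lower, and 1.89 times lower with all UMIs as the total, which is under the rule.

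Of 19 measured genes of the secretory granule 6 were higher and 1 lower, where 4.31% and 12% of all genes were, and their median log2 ratio was 0.28 against -0.18 for all genes. *Chgb* (chromosome 2, 132781278 to 132795079, plus strand), a granin that helps to form dense-core granules, was found in 188 of 190 lactotrophs at 9061 CPM (8851 to 9275). It was at 822 CPM in somatotrophs, 843 in *Pomc* cells and 31.0 in T cells, a ratio to somatotrophs of 11.0 (10.4 to 11.7). At 1000 UMIs per cell it was in 95.7% of lactotrophs and 41.7% of somatotrophs. *Scg2*, *Scg3* and *Scg5*, further granins and a convertase chaperone, were 2.63, 2.36 and 2.55 times higher, and *Nucb2*, the nesfatin precursor, 2.50 times. *Chga*, the other chromogranin, was 4.23 times higher in members but 1.69 times lower in the deep barcodes than in deep somatotrophs. *Cpe* and *Pcsk1n*, a prohormone-trimming enzyme and a convertase inhibitor, were at similar levels in both. *Syt1*, a calcium sensor of exocytosis, was 2.03 times lower and 1.75 times lower with all UMIs as the total.

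Of 28 measured genes of the endoplasmic reticulum and Golgi 26 lay between the limits, as did 83.7% of all genes tested. Their median log2 ratio was 0.24 against -0.18 for all genes, and in the deep barcodes 0.52 against -0.26. There 3 genes were higher and 1 lower, beside 685 and 2119 of all 11117 genes tested. *Ssr4*, a subunit of the translocon-associated complex, was 2.05 times higher (1.86 to 2.26), and *Atf4*, a factor of the integrated stress response, 2.80 times lower (2.19 to 3.62). *Hspa5*, the main chaperone of the compartment, was at 1015 against 1188 CPM. Both classes were above T cells, where *Hspa5* was at 524 CPM.

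Among 12 measured ion channel genes 3 were higher and 4 lower (4.31% and 12% of all genes), with a median log2 ratio of -0.71 against -0.18 for all genes. *Cacna1c*, an L-type calcium channel subunit, was 8.12 times higher (5.86 to 11.5), *Scn3a*, a sodium channel, 4.10 times and *Cacna2d1*, a calcium channel accessory subunit, 2.03 times, but 1.98 times in the deep barcodes, under the rule. *Kcnma1*, the large-conductance potassium channel, was 3.40 times lower (2.75 to 4.26) and *Kcnk2*, a leak potassium channel, 7.69 times lower (5.00 to 12.4). The calls for *Nalcn* and *Trpc1* were lost with all UMIs as the total, at 1.94 and 1.84 times lower, and that for *Trpc1* also in the deep barcodes, at a ratio of 0.666.

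Early response genes, which also rise during tissue dissociation, were lower in 8 of 14 measured (5 with all UMIs as the total) and higher in 1, where 12% of all genes were lower and 4.31% higher, with a median log2 ratio of -1.01 against -0.18. *Egr1* was at 1113 against 3778 CPM and *Fos* at 2163 against 5500. In the deep barcodes 2 of the 14 were lower, where 2119 of 11117 genes were, with *Jun* at a ratio of 0.998. The median log2 ratio there was -0.41 against -0.26 for all genes. *Nr4a2*, an orphan nuclear receptor, was 2.09 times higher in members and 1.52 times in the deep barcodes.

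Cells carrying cell cycle RNA were few. *Mki67*, a proliferation marker, had 13 UMIs in 9 members, 4.74% (2.19 to 8.80), and 1 member held 38.5% of them. It was found in 10.0% of T cells, in 1.47% of members under every limit and in 1.14% of deep barcodes. *Cdkn1a*, a cell cycle inhibitor, was 3.84 times lower than in somatotrophs. Of the RAS pathway, 8 of 9 measured genes lay between the limits, a share near the 83.7% of all genes. *Nf1*, the gene lost in the glioma cells of these mice, was found in 16.8% of lactotrophs at 63.0 CPM (46.6 to 83.3) against 94.1 in somatotrophs, and *Spry1*, a feedback inhibitor of the pathway, was 2.62 times lower on 8 UMIs. The counts do not show which *Nf1* allele was read.

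The 2 measured hormone genes of other lineages, *Pomc* and *Cga*, were higher in members, where 4.31% of all genes were. They were at 2026 against 889 CPM and 1068 against 77.6 CPM. *Cga* rested on 1 barcode, and without it the other members were at 47.9 CPM, below somatotrophs. In the deep barcodes *Pomc* was 7.57 times and *Cga* 4.51 times lower than in the deep somatotrophs. Of the 88 deep barcodes, 2 were over the *Pomc* limit, with a maximum of 4.58%. How *Pomc* and *Cga* were spread over the 68 deep somatotrophs is not given here, so neither ratio was read as a difference between the classes. Of 5 measured immunoglobulin genes 4 were higher in members, beside 4.31% of all genes. In the deep barcodes 1, *Igha*, was higher and 1, *Ighg2c*, lower, beside 685 and 2119 of all 11117 genes tested. A single deep barcode (32.7% immunoglobulin) held 289 of the 322 *Igha* UMIs, and without it *Igha* was at 27.7 against 18.4 CPM, under the rule. The limits are set on these same RNAs, so values under every limit say nothing further about them.

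By a rule fixed on size, the 25 genes with the highest smaller ratio over somatotrophs and over *Pomc* cells were named. Immunoglobulin genes made up 6 of them (led by *Ighv8-12* at 83.4 times), and 1 of the 6, *Ighv1-64*, was also higher in the deep barcodes, at 1699 against 6.89 CPM. The deep barcode with most *Igha* also held 2038 of its 2062 UMIs there, and without that barcode it was at 20.1 CPM. The other 19 were at 2-fold or more in the deep barcodes over the deep somatotrophs. The deep barcodes had no part in the choice of genes. They came from the same pool and met the same hormone and *Ptprc* conditions, so they are not an independent sample. In members under every limit the 19 were also at 2-fold or more over somatotrophs, but these members are among the 190 on which the genes were chosen.

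*Crhbp* (chromosome 13, 95431371 to 95444924, minus strand), the corticotropin-releasing hormone binding protein, had 106 UMIs in 27 lactotrophs (14.2%; 136 CPM) and 0 in somatotrophs and *Pomc* cells. With the 0 set to 3 counts it was at least 69.1-fold higher than in somatotrophs, and it was in 54.5% of the deep barcodes. Genes for extracellular signals and matrix included *Reln*, the glycoprotein reelin, 33.6 times higher (14.9 to 93.6), *Slit2*, a guidance ligand, at 148 against 9.87 CPM, and *Hapln1*, a hyaluronan link protein, 64.5 times (10.8 to 2626). *Reln* was in 27.4% of lactotrophs against 1.62% of somatotrophs, and in 80.7% of deep barcodes.

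Receptors among the named genes included the following. *Rxfp1*, the relaxin receptor, was 46.9 times higher (15.4 to 233), *Chrna6*, a nicotinic acetylcholine receptor subunit, 76.3 times (12.9 to 3089), and *Grm5*, a metabotropic glutamate receptor, 14.2 times (8.25 to 26.3). *Acvr1c*, an activin-type receptor, was 27.9 times higher (10.3 to 106) and *Epha6*, an ephrin receptor, 139 times (24.1 to 5561), where somatotrophs had 0.658 CPM. *Gucy2f*, a guanylate cyclase known from photoreceptors, was in 22.6% of lactotrophs and 0.649% of somatotrophs, at 163 against 1.32 CPM, a ratio of 124 (33.7 to 1037). *Creb3l1*, a transcription factor of secretory capacity, was 16.3 times higher (9.65 to 29.3). Except for *Chrna6*, the ratio of each of these genes was smaller in the deep barcodes. It was 5.33 for *Epha6*, 2.35 for *Grm5*, 3.75 for *Acvr1c*, 5.28 for *Creb3l1*, 9.68 for *Rxfp1* and 32.0 for *Gucy2f*. *Chrna6* had 0 UMIs in the deep somatotrophs. With that 0 set to 3 counts its ratio was at least 18.4, a bound that cannot be ordered against the 76.3 in members.

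The 15 genes with the lowest ratio to somatotrophs were all at 0.5 or less in the deep barcodes. Beside *Ghrhr* they included *Pappa2*, a protease of IGF-binding proteins, with 0 UMIs in lactotrophs and 239 CPM in somatotrophs. *Kcnmb2*, an accessory subunit of the *Kcnma1* channel, was at 3.86 against 450 CPM, 117 times lower (39.7 to 567). *Ccn1*, a matricellular protein, had 1 UMI against 506 CPM in somatotrophs, 394 times lower (70.4 to 15569), and *Il1r1*, the interleukin-1 receptor, was 35.2 times lower (16.0 to 96.5). *Grb10*, an adaptor that restrains insulin receptor signalling, was at 2.57 against 103 CPM, 39.9 times lower (10.9 to 332). Of the 14 named higher genes with a RefSeq promoter 1, *Crhbp*, held the POU1F1-type letters, as did 3 of the 14 lower genes, beside 8.84% of all promoters.

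Lists of other cell types were also checked over all members. Oligodendrocyte markers had a UMI in 86.3% of members and 85.7% of T cells, and B and plasma cell markers in 95.3% of members and 98.2% of T cells. Of 4 fibroblast markers, *Col1a1*, *Dcn* and *Pdgfrb* were at 0, yet *Col1a2*, a collagen chain, was in 48.9% of lactotrophs and 92.0% of deep barcodes, at 326 against 93.4 CPM in somatotrophs. The endothelial list had a UMI in 4.74% of members (12.9 CPM summed), 12.5% of deep barcodes and 11.9% of T cells, with *Cldn5* and *Flt1*, which define endothelium, at 0 in members. The neuron list, which includes the exocytosis gene *Syt1*, had a UMI in 60.5% of members (569 CPM summed; *Nefl* at 0), 75.6% of somatotrophs and 7.84% of T cells. The glioma or oligodendrocyte precursor list was found in 43.7% of members (430 CPM summed), 53.6% of somatotrophs and 11.9% of T cells. In members under every limit it was found in 70.6% (598 CPM), and in deep barcodes in 85.2% (338 CPM). The neuron list was in 82.4% (648 CPM) and 95.5% (578 CPM) of these barcodes. These shares were not taken at equal depth. The astrocyte list was in 17.9% of members (*Aqp4* at 0) and 13.1% of T cells. The part of these cell types in the results was not tested. T cell markers were found in 24.2% of members with a summed level of 96.5 CPM, against 2769 in T cells; the *Ptprc* condition bears on this share.

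Within the members, barcodes were split into 3 groups of about equal size by *Prl* share, a description only since *Prl* chose them. In the groups up to 23.9%, 41.2% and 76.2% *Prl*, *Pou1f1* was at 323, 550 and 757 CPM and *Chgb* at 5403, 8907 and 11469 CPM. *Creb3l1* had no such order, at 164, 118 and 233 CPM. The share of members over a limit fell across the same groups, from 53 of 64 to 44 of 63 and 25 of 63, and depth differed too. Among the 68 members under every limit the order was flatter for *Pou1f1*, at 719, 727 and 917 CPM with overlapping intervals, while *Creb3l1* was at 204, 171 and 384 CPM and *Chgb* at 10092, 10257 and 14536 CPM. *Nrg1* was highest in the lowest group there, at 4237, 1580 and 1981 CPM.

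Sex-linked RNA was read as a mark of the donor mice, because the pool's sexes are not labelled. *Xist* (chromosome X, 103460366 to 103483254, minus strand), the RNA that silences 1 X chromosome in females, was compared with the Y-linked genes *Ddx3y*, *Eif2s3y*, *Kdm5d* and *Uty*. Of 113 lactotrophs with exactly 1 of the 2 kinds, 104 had *Xist*, 92.0% (85.4 to 96.3). The other 9 had a Y-linked gene, and all 9 were over a limit of other-cell RNA. Under every limit it was 51 of 51, and in the deep barcodes 82 of 82, although 3 deep barcodes held both kinds. Among the members 7 held both kinds, all of them over a limit, and 70 held neither.

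The other classes of FMC_new had other shares. It was 96.0% in somatotrophs (191 of 199) and 98.4% in *Pomc* cells (697 of 708), but 84.5% in T cells (2080 of 2462) and 60.4% in oligodendrocytes (1038 of 1718; 58.1 to 62.7). Over all kept barcodes it was 79.2%, and in C-ON 29.8%. The interval of the lactotrophs overlapped that of T cells and lay above that of oligodendrocytes, and the 51 of 51 under every limit allow a Y-only share of up to 5.88%. Cells with *Xist* and cells with Y-linked RNA both occurred in the library, and how many mice gave the pituitary cells cannot be read from these counts.

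**Figure D5:**
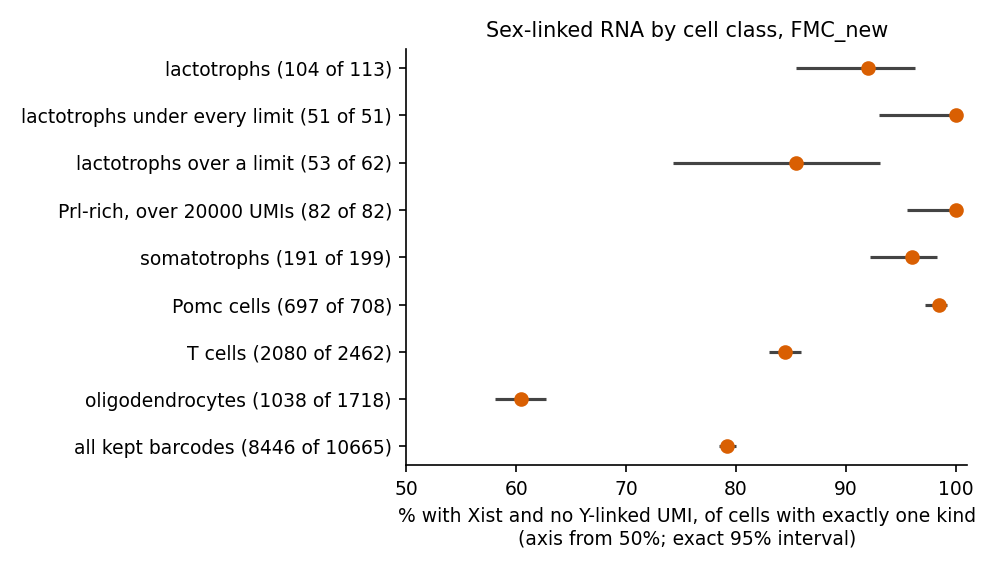
Percent of cells with Xist and no Y-linked UMI among cells with exactly 1 of the 2 kinds, with exact 95% intervals, by class (x axis from 50%). Members under every limit and deep barcodes sit at 100%, oligodendrocytes at 60.4%.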

How the data were processed

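Single-cell RNA was captured with a 10x Genomics 5′ kit. The authors deposited raw UMI counts per gene and barcode, made per the labels with Cell Ranger 7.2.0 on mm10 (32285 genes), with no normalization. Counts were read as deposited in Python 3.11.15 with numpy 2.4.6, scipy 1.17.1 and pandas 2.3.3, and figures were drawn with matplotlib 3.10.9. Depth was 85101211 UMIs in C-ON and 129113325 in FMC_new.

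Barcodes were filtered and classed as stated in the report. A level is UMIs summed over a class per 1000000 UMIs other than *Prl* and *Gh* (CPM), because these hormones take a variable part of each library. Intervals are exact at 95% (Clopper-Pearson for shares, Poisson for levels, conditional binomial for level ratios) and cover counting error only. A 0 was set to 3 counts over the class when a bound was given. Genes were compared with a UMI in at least 10% of the cells of either class and called at a ratio of 2 or 0.5. Named genes were those of the fixed lists, the 25 with the highest smaller ratio over somatotrophs and *Pomc* cells, and the 15 with the lowest ratio over somatotrophs. Genes chosen after their values were seen are *Crhbp* for its promoter and *Col1a2*. The members and lists were chosen with earlier results of these data known. The ratio step was tested on simulated data.

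Doublets were left in, because Scrublet in scanpy 1.11.5 marked 0 of 16818 barcodes. Its median score was 0.0621 in members over a limit of other-cell RNA, 0.0371 in the other members and 0.0264 over all kept barcodes. The 0 calls do not show that doublets were absent, and their part in the results was not tested. Alternatives changed the filters, the hormone and *Ptprc* conditions, depth, scaling and the gene filter. T cell receptor data were not used here. Some members of the lists, counted in their totals, are not reported by name here.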

Additional observations from a re-analysis of the deposited data

Results flagged for a closer look

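Barcodes outside the 190 members carried the prolactin signal, which C-ON lacked (0 lactotrophs). Above 20000 UMIs, 88 barcodes met the hormone and *Ptprc* conditions. All 88 had a *Pou1f1* UMI and 40.9% had *Drd2*, against 62.1% and 12.6% of members, at a median of 26366 against 4347.5 UMIs. Thinned to 1000 UMIs, *Pou1f1* was in 61.4% of deep barcodes and 29.3% of members. *Drd2* was then in 1 of 88 and 10 of 184, and at 2000 UMIs in 9.09% and 6.72%. No order was read from the thinned *Drd2* shares.

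Among kept barcodes, 67 met the hormone conditions but held a *Ptprc* UMI, and 39 of these held exactly 1. They had a median *Prl* share of 24.4% and *Pou1f1* in 41.8%, *Cd3e* was detected in 24, and 95.5% were over a limit of RNA from another cell kind. Whether they are mixed barcodes or carry free RNA was not tested.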

How the results depend on the processing

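Of 74 alternatives, 36 left their result within counting error or, for gene counts, within 1.5 times. The number of lactotrophs was 280 (1.57% of kept barcodes) without upper limits, 144 (0.856%) at 20% *Prl*, 257 (1.53%) without the *Ptprc* condition, and 29 (0.172%) with members removed that had 2 markers of another type. That removal is broad, since 50.3% of T cells had 2 oligodendrocyte markers. Chosen after seeing the data, limits on other-cell RNA left 68 (0.404%) and counting each immunoglobulin set once left 163 (0.969%).

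The *Pou1f1* share was 74.3% without upper limits, 72.4% after the marker removal, 29.3% at 1000 UMIs, 91.2% under every limit and 100% over 20000 UMIs. The *Drd2* share was 22.1%, 3.45%, 5.43%, 26.5% and 40.9% in the same order, and 6.72% at 2000 UMIs. The *Xist* share became 100% after the marker removal, under every limit and over 20000 UMIs. Genes higher and lower numbered 974 and 1991 after the marker removal, 599 and 1453 with detection in 5% of cells, 1447 and 2191 with no filter, 173 and 388 at a ratio of 3, 669 and 1422 under every limit, and 685 and 2119 over 20000 UMIs. Except for the gene filter and ratio, which change how many genes can be called, the cause was not tested.

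No paired analysis was possible because each group held 1 library, which also left no replicate to leave out. Doublet removal with Scrublet was not run further, since it marked 0 barcodes. Thinned shares of sparse genes varied between draws.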
